A study of Arabidopsis thaliana with 7 samples.

Results

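Flowers of the arf6 arf8 double mutant were compared with flowers that kept a single functional copy, and the comparison rested on 4 of the 7 arrays of the study. The arrays were chosen by their titles alone: the double mutant and the one-copy mutant, each untreated and after a spray of indole-3-acetic acid (IAA), the main natural auxin. Each genotype and treatment was 1 array of RNA from flowers of stages 1 to 14, taken from plants grown under long days for 6 weeks. The titles write the one-copy mutant as arf6/arf6 ARF8/arf8. In the series text ARF6 is the heterozygous one. Which gene kept its copy is therefore unsettled, while both versions leave 1 functional copy of 1 gene. All 4 arrays therefore share the loss of at least 3 of the 4 functional copies of both genes together. The IAA spray held 1% methanol and 0.05% Tween-20, its dose is 10 µM in the labels and 10 mM in the series text, and flowers were taken 30 minutes later per the series text. The untreated plants of both mutants were not sprayed, and no mock-sprayed mutant array was used here. The 3 wild-type Columbia arrays (untreated, IAA and mock spray) are given beside the mutants as a reading of the level with all copies present. The labels name no alleles and do not say how many plants were pooled for an array.

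ARF6 and ARF8 encode auxin response factors, transcription factors that bind auxin-responsive promoters and activate their targets once auxin has removed the Aux/IAA repressors. They are targets of the microRNA miR167 and act redundantly in flower maturation: stamen filaments elongate, petals open, the gynoecium ripens and jasmonate is made. Loss of both arrests flowers as closed buds that are sterile, which is why the state of a plant with a single copy left is of interest. ARF6 and ARF8 themselves are not on named probe sets here, so neither gene's level was read and the genotypes stand as the labels give them.

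Most transcripts that differed were lower in the double mutant. Of 13021 probe sets tested, 163 differed between the double and the one-copy mutant (limma, Benjamini-Hochberg adjusted p under 0.05). Without the filter on dim probe sets limma called 0 of 22746, with 2360 at an unadjusted p under 0.05. Of the 163, 124 were lower in the double mutant, 0.952% of the tested probe sets, and 39 were higher, 0.3% of them. Among the falls 103 were at least 2-fold and 30 at least 4-fold; among the rises 24 were at least 2-fold and 2 at least 4-fold. Both treatments gave the same sign for all 163. The test favours this, since a disagreement between the treatments widens its spread. On 23 of the lowered probe sets both double-mutant arrays lay below 64.9, the floor set on all values, so their folds are lower bounds. The floor also makes their double-mutant values equal, so a disagreement between those arrays does not enter the spread behind their p-values. None of the raised ones lay below the floor on both one-copy arrays. Over all tested probe sets the median log2 difference was 0.00.

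The p-values measure how well the untreated and the IAA pair agree on a difference. No group has a repeat array, and the single mock array is fitted exactly. The spread was therefore estimated from the 6 untreated and IAA arrays of the 3 genotypes. Without a paired wild-type array the other wild-type arrays are fitted exactly too, so the spread then comes from the 4 mutant arrays alone. Leaving out the double mutant's untreated array brought the calls to 27 and leaving out its IAA array to 18, while leaving out either of the wild-type arrays that pair with a mutant raised them to 388 (157 higher and 231 lower).

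Each pair could also be read by itself, without a test. In the untreated pair 134 probe sets were at least 2-fold lower in the double mutant (1.03%) and 72 at least 2-fold higher (0.553%). In the IAA pair these numbers were 229 (1.76%) and 105 (0.806%). The pairs share no array: of the 134 that were lower in the untreated pair, 93 were at least 2-fold lower in the IAA pair too, and 125 had the same sign. Of the 72 higher ones, 26 passed 2-fold in the IAA pair and 68 had the same sign. Across the 13021 probe sets the log2 differences of the pairs correlated with r = 0.50, a description over features that share arrays and scaling. The double-mutant IAA array had a 10th percentile of 17.9, against 9.79 on the untreated double-mutant array and 12.7 and 13.1 on the one-copy arrays; its part in the larger count of the IAA pair was not tested.

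**Figure D1:**
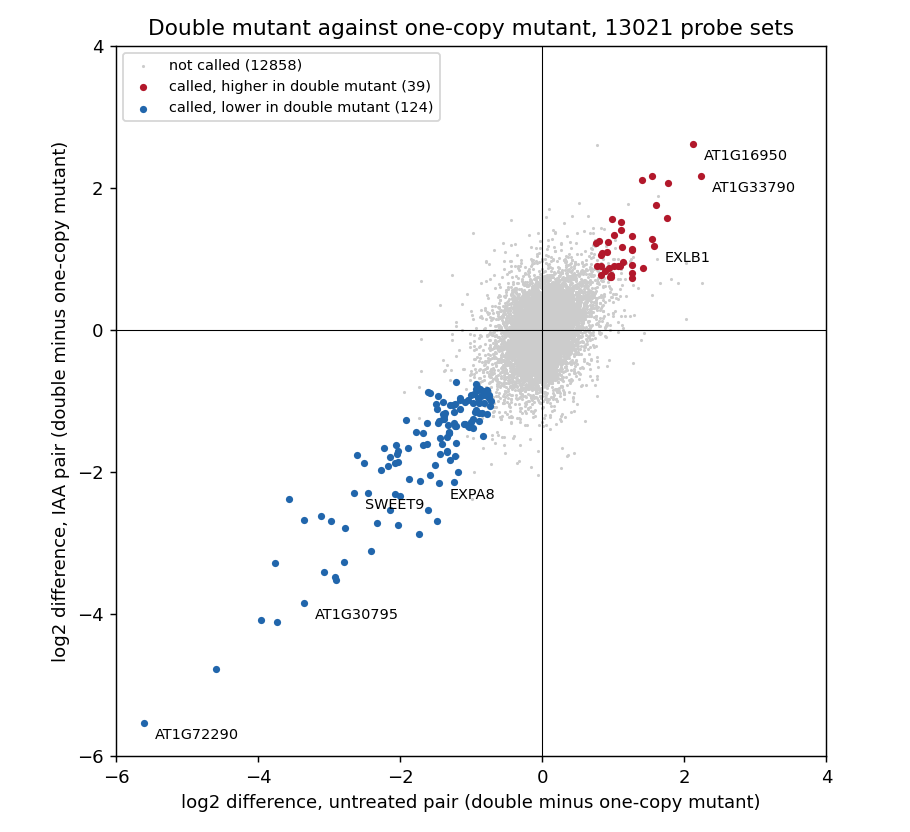
Log2 difference between the double and the one-copy mutant for each of 13021 probe sets, in the untreated pair (horizontal axis) and in the IAA pair (vertical axis). Coloured points are the 39 called higher and the 124 called lower, grey points the rest; all called points lie in the quadrants where both pairs have the same sign, with AT1G72290 at the lower left end.

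Of the 163 calls, 84 lie on probe sets with 1 listed gene (83 genes, 21 probe sets higher and 63 lower), out of 6940 such probe sets tested (1.21%). The other 79 have several genes or none listed and are counted without a name. Among them the probe set 259574_at read 98.1 and 89.3 in the double mutant, against 2359 and 2437 in the one-copy mutant, and the probe set 267431_at read 7 and 15.4 against 1011 and 1104. The largest rise among them, 251428_at, read 1267.6 and 1977.1 in the double mutant and 434.7 and 438 in the one-copy mutant. Values of a pair of arrays are given here untreated first, then IAA.

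The deepest fall was AT1G72290, which encodes a Kunitz-type protease inhibitor. It read 15.5 and 56.6 in the double mutant, against 3148.3 and 2990.3 in the one-copy mutant. Both double-mutant arrays lay below the floor, so the difference was at least 47.3-fold (limma, adjusted p = 6.14e-05). The floor sets both to the same value. With the floor at the 10th percentile the log2 difference was -6.69 (limma, adjusted p = 0.00097). Wild type read 690.1 untreated, 984 with IAA and 977.5 with mock spray, so the one-copy arrays lay above every wild-type array and the double-mutant arrays below every one. AT1G30795 read 17.9 and 16.6 in the double mutant and 665.1 and 926.7 in the one-copy mutant, a difference of at least 12.1-fold (limma, adjusted p = 0.000211). Its wild-type arrays, between 607 and 706.8, overlapped those of the one-copy mutant.

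The next largest falls were in genes of several kinds. AT3G12000, of the S-locus-related family, read 40 and 76.7 in the double mutant against 879.9 and 747.7 in the one-copy mutant, 11.5-fold lower on the floored scale. The lipid transfer protein gene AT1G05450 read 31.8 and 67.2 against 448.4 and 644.6, and fell 8.14-fold on that scale (limma, adjusted p = 0.000398 for both genes). AT3G26140, a cellulase-family gene, read 65.8 and 87.2 in the double mutant and 675.5 and 557.6 in the one-copy mutant. These genes were picked as the largest called differences, so a several-fold distance between the mutants follows from the choice. The peroxidase gene AT4G11290 read 10.8 and 95.2 in the double mutant, against 561.8 and 585.2, and 1 of its double-mutant arrays lay below the floor, as for AT3G12000 and AT1G05450. The limma adjusted p was 0.000982 for AT3G26140 and 0.000679 for AT4G11290. The sizes of these falls depend on the floor. Once it was raised to the 40th percentile the log2 differences were -2.37 for AT3G12000, -1.77 for AT1G05450, -1.97 for AT3G26140 and -1.87 for AT4G11290, all still past the test. With the floor lowered to the 10th percentile all passed too, but AT4G11290 less clearly (-3.93; limma, adjusted p = 0.035). The limma adjusted p of the other genes was then 0.000745 to 0.00148.

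SWEET9, the sucrose transporter through which nectaries secrete, read 82.6 and 83.5 in the double mutant, against 518.9 and 409.6 in the one-copy mutant, a 5.55-fold fall (limma, adjusted p = 0.000725). Its wild-type arrays read 1460.6 to 1781.9, so the one-copy mutant stood between the double mutant and wild type without overlap. Its log2 difference was -2.47, and -1.55 under the higher floor. AT5G11420, which encodes a DUF642 wall protein, read 200.6 and 157.9 in the double mutant and 818.4 and 1062 in the one-copy mutant (5.24-fold lower), with wild type at 2050.3 to 2226.7. The pectate lyase gene AT5G48900 had the same order of genotypes: 315.5 and 246.9 in the double mutant, 1153.2 and 1058.4 in the one-copy mutant and 2293 to 2562 in wild type. It fell by 1.98 ± 0.16 on the log2 scale (SE; limma, adjusted p = 0.00278).

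The rest of the 15 largest falls of named genes ran from 3.91-fold to 6.78-fold. AT4G19430 read 368.1 and 186 in the double mutant and 1960.6 and 1604.7 in the one-copy mutant. The serine carboxypeptidase-like gene scpl47 read 91.4 and 130 against 557.5 and 441.1, and CSLA01, of the mannan synthase family, 389.9 and 261.5 against 1884.3 and 1024. That these ranges were clear of each other follows from the choice of the genes as well. AT5G05600, which encodes an oxygenase that inactivates jasmonate by hydroxylation, read 152.6 and 280.5 in the double mutant against 675.1 and 966.9 in the one-copy mutant and 1097.3 to 1329.3 in wild type. It was 3.91-fold lower (limma, adjusted p = 0.00394). AT1G11850 fell 3.91-fold and AT3G10020 fell 4.50-fold as well (limma, adjusted p = 0.00261 and 0.00379).

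The rises were smaller. AT1G16950 read 1086.2 and 1446.5 in the double mutant, against 250.5 and 235.4 in the one-copy mutant, and rose 5.16-fold (limma, adjusted p = 0.00171). AT1G33790, which encodes a jacalin-type lectin, read 304.9 and 297.7 against 50.2 and 66.1 and rose 4.60-fold (limma, adjusted p = 0.000725). The fold of AT1G33790 depends on the floor, since 1 one-copy array lay below it and the other just above: its log2 difference was 0.94 once the floor was raised to the 40th percentile (limma, adjusted p = 0.0435). In wild type AT1G16950 read 176.4 to 191.2 and AT1G33790 20.1 to 92.7. AT1G62510 and AT3G53980 both encode proteins of the lipid transfer family. AT1G62510 read 490.4 and 502.9 in the double mutant and 143.2 and 119.8 in the one-copy mutant, which overlapped wild type at 44.5 to 134. AT3G53980 read 2498.2 and 2285.3 in the double mutant, 854.2 and 942 in the one-copy mutant and 144.2 to 201.7 in wild type, so here the one-copy mutant lay apart from both. Their rises over the one-copy mutant were 3.79-fold and 2.66-fold (limma, adjusted p = 0.00524 and 0.00732).

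EXLB1, an expansin-like gene, read 700.8 and 742.5 in the double mutant against 235.4 and 325.5 in the one-copy mutant, with 70.1 to 211.9 in wild type. HIS1-3, a stress-inducible linker histone gene, read 973.5 and 1424.1 against 405.8 and 570.8, with 305.6 to 321.8 in wild type. For both genes the one-copy arrays also lay above every wild-type array. The rises over the one-copy mutant were 2.61-fold and 2.45-fold (limma, adjusted p = 0.022 and 0.0252). ADPG1, a polygalacturonase that acts in the opening of anthers and fruits, read 413.9 and 346.6 in the double mutant and 189.5 and 154.8 in the one-copy mutant (2.21-fold higher). PMEPCRF, a pectin methylesterase gene, read 645.1 and 714.5 against 293.5 and 366.8 (2.07-fold higher). The limma adjusted p was 0.00939 for ADPG1 and 0.0237 for PMEPCRF. The remaining named rises were AT1G27030, the signal peptide gene RALFL28, the peroxidase gene AT5G58400, AT1G49500, the flavin monooxygenase gene FMO, the sugar transporter gene SFP1 and AT4G33985, between 2.01-fold and 2.39-fold. AT4G33985 read 137.7 and 281.7 in the double mutant and 73.1 and 131.5 in the one-copy mutant, a call close to the threshold (limma, adjusted p = 0.0493). Its log2 difference was 1.01, and 0.42 once the floor was raised to the 40th percentile (limma, adjusted p = 0.443).

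**Figure D2:**
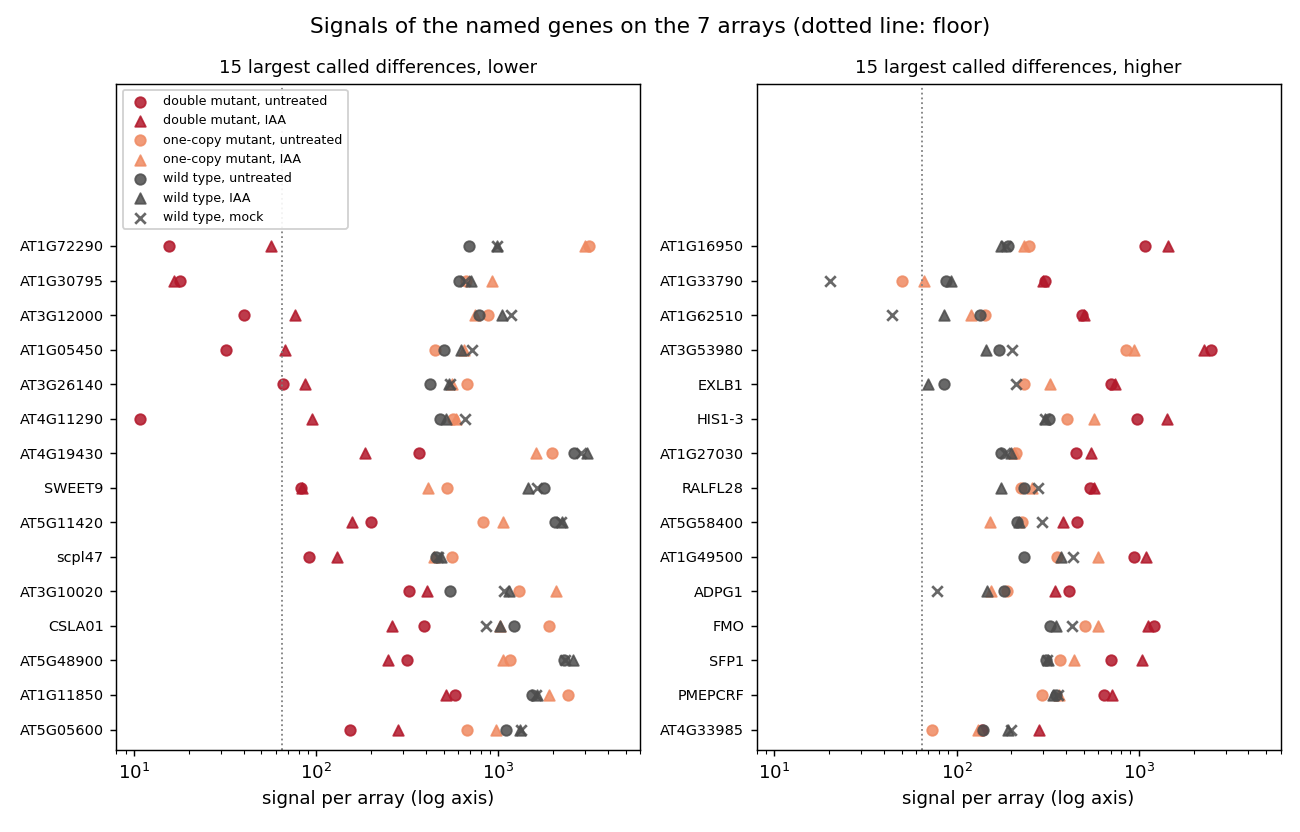
Signal on each of the 7 arrays (horizontal log axis, MAS5 units) for the 15 largest called falls (left) and the 15 largest called rises (right). Red marks the double mutant, orange the one-copy mutant, grey wild type, and the dotted line the floor of 64.9; in AT1G72290 the orange points, at 3148.3 and 2990.3, lie right of the grey ones, while in SWEET9 they lie between red and grey.

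The one-copy mutant did not hold a fixed place between the double mutant and wild type. The double-to-one-copy and the one-copy-to-wild-type differences use the same one-copy arrays, so their values are set side by side and no agreement between them is counted. For AT1G05450, AT4G11290 and scpl47 the one-copy mutant lay within 0.32 of wild type on the log2 scale in both treatments. AT4G11290 read 561.8 and 585.2 in the one-copy mutant and 480.2 and 513 in wild type, and scpl47 557.5 and 441.1 in the one-copy mutant and 454.2 and 486.3 in wild type. TBL26, of a family that acetylates wall polysaccharides, read 592 and 326 in the double mutant, 1682.1 and 1212.9 in the one-copy mutant and 1751.6 and 1477.6 in wild type, and was 3.25-fold lower in the double than in the one-copy mutant (limma, adjusted p = 0.00658). AT2G42900 read 241.7 and 200.6 in the double mutant, 611.9 and 662 in the one-copy mutant and 511.6 and 730.4 in wild type. In all of these the double-mutant arrays lay below every wild-type array.

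Among the named called rises with the one-copy mutant as close to wild type, the 5 largest were AT1G27030, ADPG1, PMEPCRF, AT3G21790 and AT2G04795. AT1G27030 read 453.7 and 546.7 in the double mutant, 210.8 and 206.7 in the one-copy mutant and 176.2 and 199.3 in wild type. AT3G21790, a glycosyltransferase gene, read 244 and 284.5 in the double mutant, 137.2 and 151.8 in the one-copy mutant and 135.1 and 149 in wild type, and rose 1.83-fold over the one-copy mutant (limma, adjusted p = 0.0309). Its one-copy and wild-type values were nearly equal in each treatment. A single called gene, AT1G21540, had the double mutant within 0.32 of wild type on the log2 scale in both treatments. It read 199.2 and 168 in the double mutant, 378.9 and 285.4 in the one-copy mutant and 217.9 and 206 in wild type, so the one-copy arrays were the ones that stood apart (limma, adjusted p = 0.0493).

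Over the 16 gene lists with a named probe set 32 genes were tested, of which 2 rose and 3 fell. Among all single-gene probe sets 1.21% were called. The lists were chosen with earlier results of these data known, so no enrichment can be read from these counts. Of the GH3 genes, whose enzymes conjugate auxin to amino acids, 3 were tested. None passed after adjustment over all probe sets with limma, while 3 had an unadjusted p under 0.05, as had 1858 of all 13021 probe sets. GH3.3 read 539.9 and 955 in the double mutant against 662.4 and 1659.6 in the one-copy mutant, a log2 difference of -0.55 ± 0.18 (SE; limma, adjusted p = 0.25). GH3.17 read 131.8 and 246.1 against 304.5 and 315.6 (-0.78 ± 0.22, limma, adjusted p = 0.184). GH3.5, listed as WES1, had the opposite sign: it read 1963.1 and 2995.3 in the double mutant and 1195.6 and 1472.1 in the one-copy mutant (0.87 ± 0.16, limma, adjusted p = 0.0595). The homeobox gene HAT2, an early auxin-inducible gene, read 1321.3 and 3942.4 in the double mutant against 819 and 1763.6 in the one-copy mutant (0.93 ± 0.16, limma, adjusted p = 0.0504). Both HAT2 and GH3.5 were higher in the double mutant in each treatment, at values just short of the threshold. IAA18, the Aux/IAA repressor gene that could be tested, had a log2 difference of 0.09 ± 0.14 (limma, adjusted p = 0.813).

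**Figure D3:**
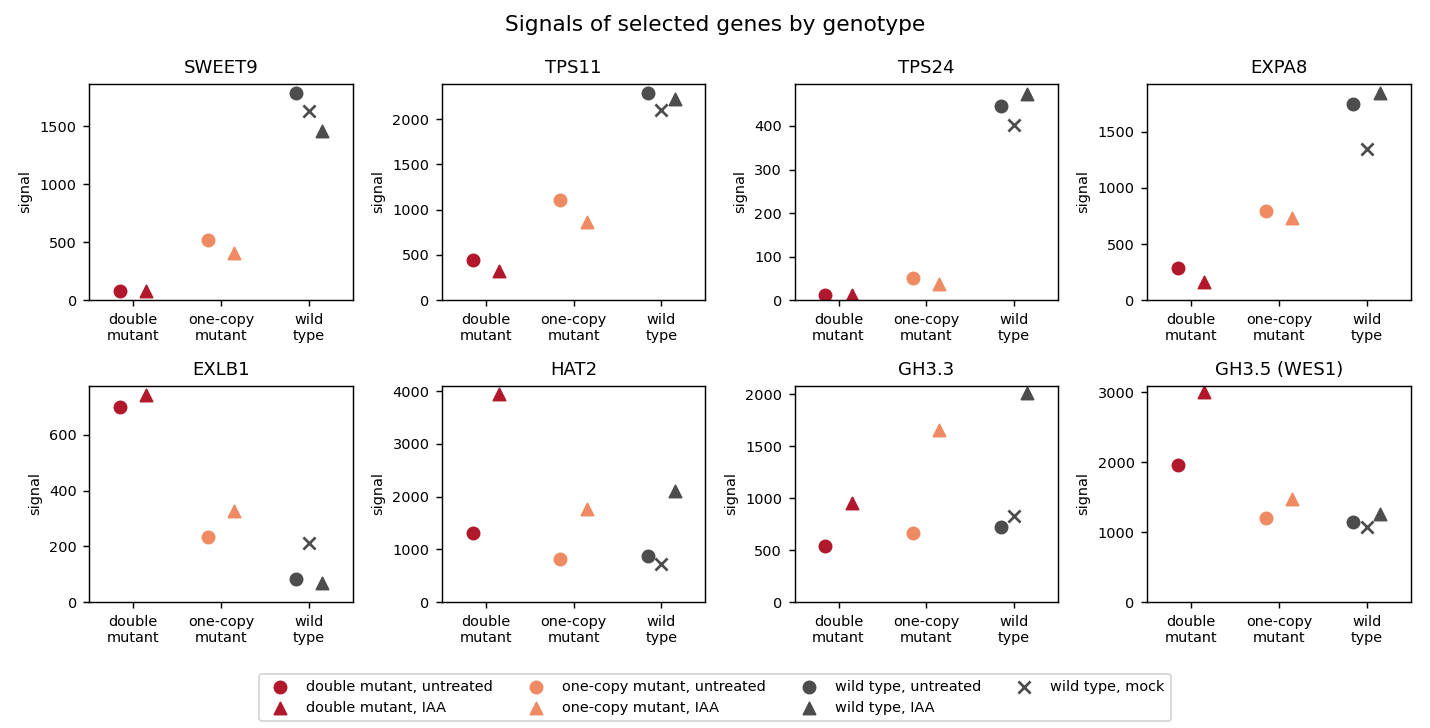
Signal (MAS5 units, linear axis from 0) of 8 genes in the double mutant, the one-copy mutant and wild type, with circles for untreated, triangles for IAA and crosses for mock-sprayed flowers. SWEET9, TPS11 and EXPA8 are lowest in the double mutant, higher in the one-copy mutant and highest in wild type, TPS24 is at 50.4 or less in both mutants, and HAT2 and GH3.5 are highest in the double mutant within each treatment.

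Jasmonate genes were read next, because jasmonate supply is what these factors are known for in flowers. Most genes of the synthesis list, among them DAD1, LOX2, AOS and OPR3, had no named probe set, so their levels were not read. The same held for MYB21 and VSP1 of the response list. Of the synthesis list AIM1, a beta-oxidation gene, and OPCL1, a ligase gene of the same route, were tested and 0 of 2 passed with limma, also at an unadjusted p under 0.05. These genes alone cannot speak for the route as a whole. AIM1 read 1642.1 and 1481.1 in the double mutant and 1885.3 and 1921.4 in the one-copy mutant, a log2 difference of -0.29 ± 0.14 (SE; limma, adjusted p = 0.406). OPCL1 read 301.7 and 408.3 against 410.6 and 379.8, with opposite signs in the untreated and the IAA pair (limma, adjusted p = 0.702). JMT, which encodes the methyltransferase that makes methyl jasmonate, did not pass the filter on dim probe sets and read 102.8 and 23 in the double mutant and 240.8 and 61.3 in the one-copy mutant. AT2G38240, which encodes a relative of the oxygenase of AT5G05600, read 35 and 39.9 in the double mutant against 151.4 and 222.7 in the one-copy mutant, at least 2.83-fold lower (limma, adjusted p = 0.00923). It is on no list and was picked after its values were seen. The thionin gene THI2.1, a jasmonate-responsive gene, read 9972.8 and 10233.1 in the double mutant and 8506.8 and 9999.9 in the one-copy mutant (0.13 ± 0.13, limma, adjusted p = 0.707). Its relative THI2.2 read 443.7 and 395.5 in the double mutant, while the one-copy arrays disagreed at 260.4 untreated and 14.8 with IAA (limma, adjusted p = 0.155).

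The floral scent and wall-loosening lists gave 1 and 2 calls. TPS11 (AT5G44630), a sesquiterpene synthase gene of the flower, read 442.2 and 319.7 in the double mutant, against 1102.9 and 864 in the one-copy mutant and 2097.6 to 2292.6 in wild type. It was 2.60-fold lower in the double than in the one-copy mutant (limma, adjusted p = 0.00923). TPS24 (AT3G25810), a monoterpene synthase gene, read 12.3 and 13 in the double mutant and 50.4 and 37.5 in the one-copy mutant, all below the floor, so no fold is given; wild type read 402.7 to 474. Of the cell wall loosening list EXPA8, an expansin gene, read 289.1 and 163.9 in the double mutant against 793.6 and 729.9 in the one-copy mutant and fell by 1.81 ± 0.22 on the log2 scale (SE; limma, adjusted p = 0.0133), while EXLB1 rose. EXPA15 and XTH33 had log2 differences of -0.07 ± 0.17 and -0.34 ± 0.16 (SE; limma, adjusted p = 0.89 and 0.396).

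Markers of flower tissues were compared because whole flowers were sampled, and in bulk tissue fewer cells of a type and less RNA per cell cannot be told apart. The nectary list had 1 tested gene, SWEET9, which was called lower in the double mutant, as given above. None of the 2 pollen, 2 tapetum, 2 carpel and ovule and 1 stigma and style genes tested passed with limma; 1, 0, 1 and 1 of them had an unadjusted p under 0.05. The pollen genes AT59 and ANX2 had log2 differences of -0.56 ± 0.17 and -0.31 ± 0.25, and the tapetum genes A9 (AT5G07230) and AMS 0.49 ± 0.24 and 0.09 ± 0.19 (SE; limma, adjusted p from 0.215 to 0.869). Summed over the 4 named pollen genes the signal was 909.5 and 748.8 in the double mutant, 1086.7 and 1024.9 in the one-copy mutant and 1424.5 to 1989.6 in wild type. Summed over the 2 tapetum genes it was 2332.5 and 1786.8, 1775.9 and 1316.5, and 676 to 913.5 in the double mutant, the one-copy mutant and wild type. None of these lists' genes was at 0 or below the floor on every array. The pollen sums were lowest and the tapetum sums highest in the double mutant. The mutants did not overlap for either sum. The nearest tapetum sums were 1786.8 in the double mutant and 1775.9 in the one-copy mutant. The pollen genes ANX1 and MGH3, which did not pass the filter on dim probe sets, did not follow the sum in both pairs. ANX1 read 97.6 in the double mutant against 86.7 in the one-copy mutant untreated, and MGH3 128.2 against 55.7 with IAA. In their other pair both were lower in the double mutant. The part of tissue composition in the calls above was not tested. The carpel gene SPT and the ovule gene INO had 0.27 ± 0.14 and 0.39 ± 0.13, SHI, a style gene, 0.82 ± 0.21, and the division marker AUR1 -0.24 ± 0.16 (SE; limma, adjusted p from 0.156 to 0.547).

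Stress and other lists gave 1 call, HIS1-3. WRKY53 and STZ encode transcription factors that respond to stress. WRKY53 read 90.3 and 275.3 in the double mutant, against 63.3 and 117.8 in the one-copy mutant (limma, adjusted p = 0.124). STZ read 171 and 762.9 in the double mutant, against 159.4 and 235.1 in the one-copy mutant. For STZ the difference lay in the IAA pair, where the log2 difference was 1.70, against 0.10 in the untreated pair (limma, adjusted p = 0.42 over both pairs). The senescence gene SAG29, the gibberellin receptor gene GID1A, and the flavonoid genes DFR, UGT78D1 and UGT78D2 did not pass either, with log2 differences from 0.11 to 0.75 (limma, adjusted p from 0.447 to 0.843).

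Named gene families were described by counts. Over 28 families 271 genes were tested, of which 4 rose and 8 fell, spread over 9 families, beside 1.21% called among all single-gene probe sets. Expansins gave 1 rise (EXLB1) and 1 fall (EXPA8) among 11, with a family median of -0.07 on the log2 scale against 0.01 for all 6885 genes tested. Of 9 GH9 endoglucanase genes, GH9B11 fell: both double-mutant arrays, at 61.3 and 17.5, were below the floor, against 132.5 and 166.8 in the one-copy mutant, at least 2.29-fold (limma, adjusted p = 0.0166). Of 18 SCPL carboxypeptidase genes scpl47 and SCPL43 fell. SCPL43 read 311.5 and 378.9 in the double mutant and 949.4 and 696.6 in the one-copy mutant (2.37-fold lower, limma, adjusted p = 0.0333). UGT85A3 fell among 17 UGT glycosyltransferase genes, at 88.4 and 109.9 in the double mutant against 216.9 and 227.4 in the one-copy mutant (limma, adjusted p = 0.0118). UGT85A3 too entered the test through wild type alone. The glycosyltransferase gene AT3G21790, which rose, is listed by its locus code and is not counted in this family.

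Members of single families parted ways. Of 9 RALF-like peptide genes, whose products signal through receptor kinases at the cell surface, RALFL28 read 542.2 and 566.3 in the double mutant against 225.5 and 260.5 in the one-copy mutant and rose, and RALFL25 read 445.8 and 480.2 against 849.8 and 856.9 and fell by 0.88 ± 0.14 on the log2 scale (SE; limma, adjusted p = 0.032 and 0.0346). Of 14 SWEET genes SWEET9 alone passed. SWEET14 read 185.7 and 57.7 in the double mutant and 369.7 and 336.8 in the one-copy mutant (-1.68 ± 0.32, limma, adjusted p = 0.0714), while SWEET11 read 3369.8 and 3976.6 against 2221.7 and 2243.7 (0.71 ± 0.16, limma, adjusted p = 0.105). The 19 families without a call by limma included 66 plastid-encoded genes (median -0.09, 8 with an unadjusted p under 0.05), 12 bZIP genes (0.08), 11 ATG autophagy genes (0.22) and 7 tubulin genes (-0.03).

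**Figure D4:**
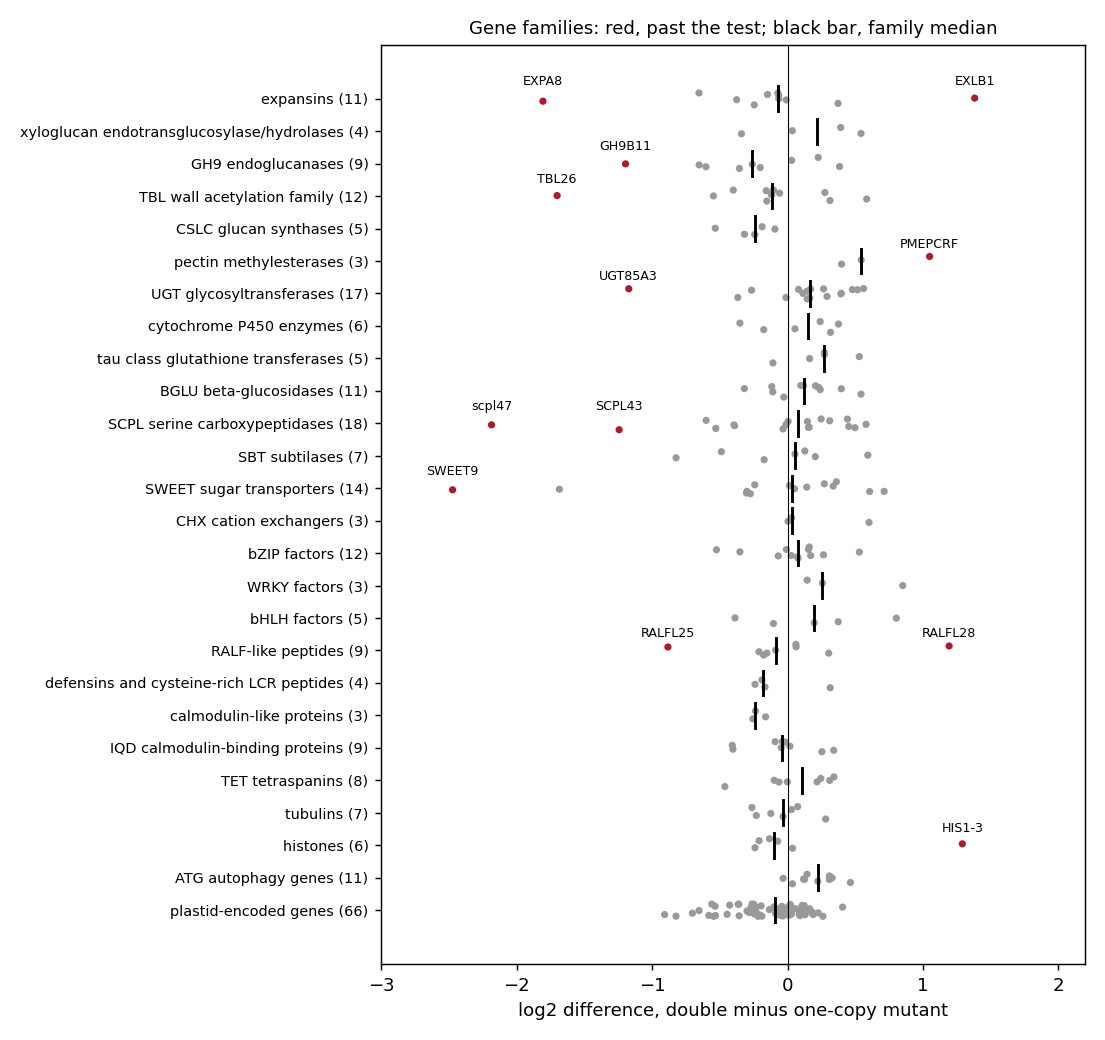
Log2 difference between the double and the one-copy mutant for each tested gene of the families with 3 or more tested genes, the number in brackets; red points passed the test and the black bar is the family median. The named red points lie outside the spread of their families, which follows largely from the test picking large differences. The medians lie between -0.26 and 0.54.

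Several further named calls share a kind of product, and these genes were singled out after their values were seen. Besides AT4G11290, the peroxidase genes AT1G44970 and AT3G03670 fell. AT1G44970 read 862.2 and 639.6 in the double mutant against 2834.8 and 2786.7 in the one-copy mutant (3.78-fold lower), and AT3G03670 read 23.6 and 64.2 against 176.8 and 186.8 (at least 2.80-fold lower; limma, adjusted p = 0.00624 and 0.0057). The peroxidase gene AT5G58400 moved the other way, at 460.5 and 384.8 in the double mutant and 229.3 and 152.5 in the one-copy mutant. A second DUF642 gene, AT4G32460, fell 2.29-fold, at 1160.2 and 834.5 in the double mutant against 2390.8 and 2124.3 in the one-copy mutant (limma, adjusted p = 0.0323). AT1G70720, of the pectin methylesterase inhibitor family, and AT1G72110, of the wax ester synthase family, were below the floor on both double-mutant arrays and at least 3.02-fold and 3.43-fold lower (limma, adjusted p = 0.0166 and 0.0118). GLC, which encodes an acyltransferase, is carried by a pair of probe sets that both fell. They read 165.7 and 138.8, and 559.2 and 480.5, in the double mutant, against 421.6 and 395, and 1326.7 and 1190.1, in the one-copy mutant (2.69-fold and 2.42-fold lower). Of 55 genes with several tested probe sets GLC alone had a call, and the others had none on any probe set.

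Whether the effect of the last copy differed between untreated and IAA-sprayed flowers had no test, since each genotype and treatment is 1 array. Of 6940 single-gene probe sets, 12 were at least 1.5-fold higher in one pair and at least 1.5-fold lower in the other. None of these was called, and a test on the mean of the pairs could hardly call them. The largest gap was that of AT2G38840, which read 141.7 and 263.5 in the double mutant and 277.8 and 102.4 in the one-copy mutant. Its log2 difference was -0.97 untreated and 1.36 with IAA. GH3.17 kept its sign, with -1.21 untreated and -0.36 with IAA, and so did HAT2, with 0.69 and 1.16.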

How the data were processed

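RNA of 7 flower samples had been hybridised to single-colour Affymetrix arrays, 1 per genotype and treatment. The authors deposited linear intensity values, and the submitters' processing notes list MAS5. Every array had a 2% trimmed mean of 500, so the authors' scaling was kept. Control probe sets were left out. Values under the 25th percentile (64.9) were set to it before log2, and a probe set entered the test if at least 1 of 7 arrays exceeded the 50th percentile (248.1). Genotype plus treatment was modelled over all 7 arrays with limma 3.58.1 in R 4.3.3 (2 residual degrees of freedom, prior 4.94). The contrast, double minus one-copy mutant, is the mean of the untreated and the IAA pair. P-values were adjusted by Benjamini-Hochberg over 13021 probe sets, with a threshold of 0.05. Folds are on the floored scale, and "at least" marks genes with both arrays of the lower side under the floor. The number of arrays limits the precision.

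Of 22746 probe sets, 13513 carried 1 gene in the platform annotation, 503 several and 8730 none listed; 13436 were matched to the RefSeq table of assembly TAIR10.1, used for names only. The genes named are the 15 largest called rises and falls of 1 gene each, with the same sign in both pairs. Members of lists and families were named too. So were the largest called rises and falls with a mutant within 0.32 of wild type on the log2 scale. The widest gaps among those opposite between pairs were also named. Of 137 entries in 20 lists, 38 had a named probe set; 4 lists (auxin response factors, class 1 KNOX and boundary, petal and stamen identity, green tissue) had none. Families were matched by symbol or synonym, so members listed by a locus code alone were missed and the family counts are partial. Some families are not reported here. Where a gene of a list or family had several probe sets, the one with the highest mean log2 signal was used. The members and lists were chosen with earlier results of these data known. The fit was checked on simulated data. Alternatives were other floors, filters and scalings, an intensity trend, the 4 mutant arrays alone, no treatment term and leaving out each paired array.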

Additional observations from a re-analysis of the deposited data

Results flagged for a closer look

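For 12 genes the double mutant was higher than the one-copy mutant in one treatment and lower in the other, at least 1.5-fold each way. The 5 with the widest gap are given here. Each treatment is a single array per genotype, and the difference was not tested. The IAA pair minus the untreated pair was 2.33 on the log2 scale for AT2G38840, 1.75 for AT1G01310 and 1.74 for AT1G11960, which read higher in the double mutant with IAA alone. It was -1.88 for AT1G15480 and -1.70 for MSRB5, a methionine sulfoxide reductase gene, which read lower there with IAA alone. MSRB5 read 364.7 untreated and 166.3 with IAA in the double mutant, against 214.3 and 317.6 in the one-copy mutant. AT1G15480 read 232 and 72.7 in the double mutant against 153.5 and 177.1 in the one-copy mutant, and AT1G11960 177.3 and 400.6 against 307 and 207.2.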

How the results depend on the processing

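Of 163 calls (39 higher and 124 lower), limma gave 77 (11 and 66) once the floor was raised to the 40th percentile, 335 (124 and 211) under an intensity trend, 388 (157 and 231) with the 4 mutant arrays alone, and 97 (12 and 85) with no treatment term. With no filter on dim probe sets it called 0 (0 and 0), with 2360 at an unadjusted p under 0.05, against 1858 in the reported fit. A filter at the 70th percentile gave 238, with 83 higher and 155 lower. With the other floor, the filter on mutant arrays and both scalings the count lay between 159 and 178. Under the filter on the 4 mutant arrays 146 of the 163 calls remained, and 71 of the 84 on single-gene probe sets. Leaving out 1 array at a time gave 18 to 388 calls, 2 to 157 higher and 16 to 231 lower. Leaving out either paired wild-type array gave the same fit as the 4 mutant arrays alone, since the remaining wild-type arrays are then fitted exactly. All 163 calls were shared with that fit, which counts as 1 check. Far fewer were shared without the double mutant's untreated or its IAA array, where 1 pair is left. The p-values of these fits rest on 1 residual degree of freedom. Of the 15 largest rises and 15 largest falls of named genes, 8 to 30 passed when an array was left out and 0 with no filter; none changed sign under any of these settings. AT1G72290, AT1G30795, AT3G12000, AT1G05450, AT4G11290, SWEET9, AT1G16950 and AT1G33790 passed without either double-mutant array. Without a treatment term 9 of the 15 largest rises and 15 largest falls lost the call. EXLB1 and ADPG1 were among them (limma, adjusted p = 0.42 and 0.375). Opposite signs between the pairs were seen for 7 probe sets in place of 12 under the higher floor. The cause of these changes was not tested. No paired analysis was possible because the labels carry no replicate numbers, beyond the pairing by treatment that the model already holds.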

Other observations

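For 4 called genes the one-copy mutant lay on the far side of wild type, more than 0.32 from it on the log2 scale in both treatments, and the double mutant lay more than 0.32 from wild type on the opposite side; this rule was set after the data were seen. Beside AT1G72290 these were AT3G10020, AT4G36610 and AT1G33790. Their calls are those between the mutants. The one-copy to wild-type difference passed for AT1G72290 and AT3G10020 (limma, adjusted p = 0.00744 and 0.0396). It did not pass for AT4G36610 and AT1G33790 (limma, adjusted p = 0.0895 and 0.117). AT3G10020 read 321.5 and 407.3 in the double mutant, 1291.6 and 2057.3 in the one-copy mutant and 543.2 and 1140.1 in wild type. AT4G36610 read 70.8 and 103.4, 294.7 and 318.6, and 194.3 and 180.6 in the same order, but its mock-sprayed wild-type array, at 341.7, lay above the one-copy arrays. The jacalin-type lectin gene AT1G33790 had the reverse order, with the one-copy mutant lowest at 50.2 and 66.1 and wild type at 87.2 and 92.7, and 20.1 on the mock array.

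AT3G55920, a cyclophilin gene, was nearly absent from the wild-type arrays, at 1, 1.8 and 16.8, and read 317.3 and 260.9 in the double mutant and 149.2 and 140.3 in the one-copy mutant. It rose 1.99-fold between the mutants (limma, adjusted p = 0.0241).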
